A study of Mus musculus with 19 samples.

Results

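Replication-dependent histone genes encode the bulk of the core histones H2A, H2B, H3 and H4 and of the linker histones H1, and they were followed here across naive, activated and transferred mouse CD8 T lymphocytes. They were taken as every probe set annotated to a single gene whose symbol is that of a clustered histone gene (H1f1 to H1f5, H2ac, H2bc, H3c or H4c, or the older Hist names), and this gave 27 of the 19938 genes measured by such a probe set. By class they were 5 H1 genes, 4 H2A genes, 9 H2B genes, 3 H3 genes and 6 H4 genes. All 27 matched RefSeq by symbol. By the GRCm38.p6 annotation 22 lie on chromosome 13, 4 on chromosome 3 and H1f10 on chromosome 6.

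Most replication-dependent histone genes have no introns and lie in clusters, and their mRNAs end in a stem-loop instead of a poly(A) tail. Transcription of the clusters depends on Npat, a substrate of cyclin E and Cdk2, and the stem-loop is bound by Slbp, which takes part in the processing, translation and stability of the mRNA. The mRNAs accumulate in S phase, when new DNA has to be packed into nucleosomes, and are degraded when replication stops. Naive T cells are quiescent and activated T cells divide quickly, so these genes are a standard readout of DNA replication in a T-cell population.

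Not every gene taken in this way depends on replication. H1f10 matches the letters of the rule but encodes a replication-independent linker histone. H2ac1 and H2bc1 encode testis types of H2A and H2B. H2bc21, formerly Hist2h2be, is known from mouse olfactory neurons as the gene of a replication-independent H2B variant. Leaving out H1f10, H2ac1 and H2bc1, 24 genes remain.

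Gene expression was measured on 19 Affymetrix mouse arrays, each from 0.125 µg of RNA of purified CD8 T lymphocytes. The groups were T-BetKO cells with Stat5ca after transfer (arrays 39 and 40 from day 14 and array 41 from day 54), TCRP1A cells with Stat5ca after transfer (arrays 11 to 14, day 20), TCRP1A control cells after transfer (array 30 from day 18 and array 32 from day 120), TCRP1A cells with Stat5ca after 72 h of activation (arrays 9 and 10), TCRP1A control cells after 72 h (arrays 1 to 4) and naive TCRP1A cells (arrays 33 to 36). TCRP1A mice are transgenic for a T-cell receptor, Rag-1-/- and of B10.D2 background, and their CD8 cells were activated with the antigen this receptor recognises. Stat5ca is an active form of Stat5, the transcription factor downstream of IL-2 and related cytokines. Transferred cells came from spleen and lymph nodes of congenic hosts. The series text puts recovery of TCRP1A cells later than day 20, whereas the labels give days 18 and 20. T-BetKO cells lack T-bet, the T-box factor encoded by Tbx21. For these cells the labels give C57BL/6 as the strain but B10.D2 as the background and list an additional labelling protocol. They were stimulated through CD3 and CD28, received Stat5ca 24 h later and were cultured for another 48 h. Tbx21 signals were 8.18, 8.19 and 8.34 in T-BetKO cells, against 11.77, 11.77, 11.97 and 11.81 in TCRP1A Stat5ca cells after transfer. No transduction is named for the control cells, so effects of Stat5ca and of transduction cannot be told apart. The labels do not say whether arrays came from separate animals or cultures, and p-values then measure only the spread between these arrays, which may be technical.

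Cd3e, Cd8a and Cd8b1, which define CD8 T cells, were bright on all 19 arrays, but CD8 T-cell markers were not even between groups. The mean log2 signal of 8 such markers was 11.68 to 12.24 in T-BetKO cells and 11.57 and 11.74 in transferred control cells. It was 12.28 to 12.34 in transferred Stat5ca cells and 12.63 and 12.65 in Stat5ca cells at 72 h. In control cells at 72 h it was 12.39 to 12.63, and in naive cells 12.16 to 12.52. Myeloid markers were measured too, and the mean log2 signal of 18 such genes was 10.81 to 12.43 in T-BetKO cells, 9.90 to 10.77 in transferred Stat5ca cells, 12.39 and 12.54 in transferred control cells, 7.25 and 7.32 in Stat5ca cells at 72 h, 8.53 to 9.25 at 72 h in control cells, and 8.20, 11.95, 9.15 and 11.79 on naive arrays 33 to 36. Adgre1 and Csf1r, which mark macrophages, averaged 12.66 and 13.21 in transferred control cells, against 7.10 and 8.38 in control cells at 72 h. Naive arrays 34 and 36 stood apart from arrays 33 and 35 by these markers and by the mean of 15 G2 and M phase genes, which was 9.28 and 9.16 on arrays 34 and 36 and 7.07 and 7.64 on arrays 33 and 35. Other lists set arrays apart too. The mean of the erythroid genes Alas2 and Slc4a1 was 8.76 on transferred Stat5ca array 13 and 11.31 to 11.39 on arrays 11, 12 and 14, and it was 9.30 on transferred control array 30 and 13.48 on array 32. In control cells at 72 h Eomes, a T-box factor, had 11.41 and 11.46 on arrays 1 and 4, against 9.77 and 9.57 on arrays 2 and 3. The part of these differences in the results was not tested, except where a fit without the arrays is given. As the arrays measure bulk RNA, fewer cells that express a gene and less RNA per cell cannot be told apart.

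The promoters of these genes share short elements that most promoters lack, and the windows below are shown because they belong to the genes with the largest rises on activation in the H2A, H2B and H1 classes (H2ac4, H2bc3 and H1f5) and to an H1 gene that was not called there (H1f2). The windows run from 250 bases before to 50 bases after the RefSeq transcript start in GRCm38.p6 and were available for 23 of the 27 genes. Capitals in H2ac4 and H2bc3 mark CCAAT, bound by NF-Y, and the octamer ATTTGCAT, bound by Oct-1. In H1f5 and H1f2 they mark CCAAT and AAACACA, an element known from H1 promoters. The H2ac4 window holds AAACACA as well, left in lower case. Each was searched on both strands, and no matches of different motifs overlapped in these windows.
H2ac4 (chr13:23750838-23751137, plus strand): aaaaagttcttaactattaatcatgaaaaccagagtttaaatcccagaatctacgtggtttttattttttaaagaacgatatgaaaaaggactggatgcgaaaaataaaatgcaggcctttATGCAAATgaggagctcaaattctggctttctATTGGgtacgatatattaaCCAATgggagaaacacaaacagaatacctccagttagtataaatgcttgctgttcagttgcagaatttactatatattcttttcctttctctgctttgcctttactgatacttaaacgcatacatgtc
H2bc3 (chr13:23746484-23746783, plus strand): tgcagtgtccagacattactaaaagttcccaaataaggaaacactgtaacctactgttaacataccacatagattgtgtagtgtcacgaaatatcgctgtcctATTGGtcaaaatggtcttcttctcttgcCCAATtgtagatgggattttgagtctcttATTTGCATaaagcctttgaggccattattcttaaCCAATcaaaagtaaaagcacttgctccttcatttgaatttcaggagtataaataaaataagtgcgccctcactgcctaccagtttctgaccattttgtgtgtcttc
H1f5 (chr13:21780576-21780875, minus strand): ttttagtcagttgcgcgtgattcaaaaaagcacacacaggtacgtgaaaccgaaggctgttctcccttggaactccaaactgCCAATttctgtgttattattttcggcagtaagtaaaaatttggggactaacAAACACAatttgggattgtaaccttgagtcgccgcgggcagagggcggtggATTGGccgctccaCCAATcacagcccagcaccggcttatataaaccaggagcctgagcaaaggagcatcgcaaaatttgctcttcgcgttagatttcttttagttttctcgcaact
H1f2 (chr13:23738557-23738856, plus strand): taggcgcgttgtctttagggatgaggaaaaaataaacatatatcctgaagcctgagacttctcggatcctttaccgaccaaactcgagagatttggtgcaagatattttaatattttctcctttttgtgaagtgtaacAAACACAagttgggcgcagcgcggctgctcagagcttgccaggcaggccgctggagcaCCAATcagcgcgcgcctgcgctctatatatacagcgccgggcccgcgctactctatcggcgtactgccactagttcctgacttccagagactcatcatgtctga

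CCAAT or its complement was present in 19 of the 23 windows (82.61%), against 37.92% of 27025 RefSeq promoter windows of the same length. It was in 4 of 5 H1, 4 of 4 H2A, 7 of 7 H2B, 2 of 2 H3 and 2 of 5 H4 windows. The octamer was in 8 histone windows (34.78%), against 1.75% of all windows, and those 8 were 3 of the 4 H2A and 5 of the 7 H2B windows. AAACACA was in 7 (30.43%, against 7.14%) and TATAAA in 15 (65.22%, against 14.16%). AAACACA was not confined to H1 genes: it was in 3 of 5 H1, 2 of 4 H2A and 2 of 7 H2B windows. H1f2 and H1f5 both held AAACACA and CCAAT, while their signals followed different courses, described below. A match describes the letters of a window and is not a bound site.

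Across the 6 groups most of these genes had a common shape. The highest group mean was that of control cells at 72 h for 21 genes, of Stat5ca cells at 72 h for 2 and of transferred control cells for 4. The lowest was that of naive cells for 22 genes, of transferred control cells for 2, of transferred Stat5ca cells for 2 and of Stat5ca cells at 72 h for 1. The difference between the highest and lowest group was largest for H2ac4, an H2A gene, at 4.18 on the log2 scale, and smallest for H1f10, at 0.44. The genes highest in transferred control cells were H1f2, H2bc4, H2bc8 and H3c4. As a background level for silent genes, 7.30 was used, the 95th percentile over receptor genes of the olfactory and vomeronasal systems. H2ac8 and H3c7 had a mean under it in all 6 groups, so their differences are not read as changes of level.

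**Figure D1:**
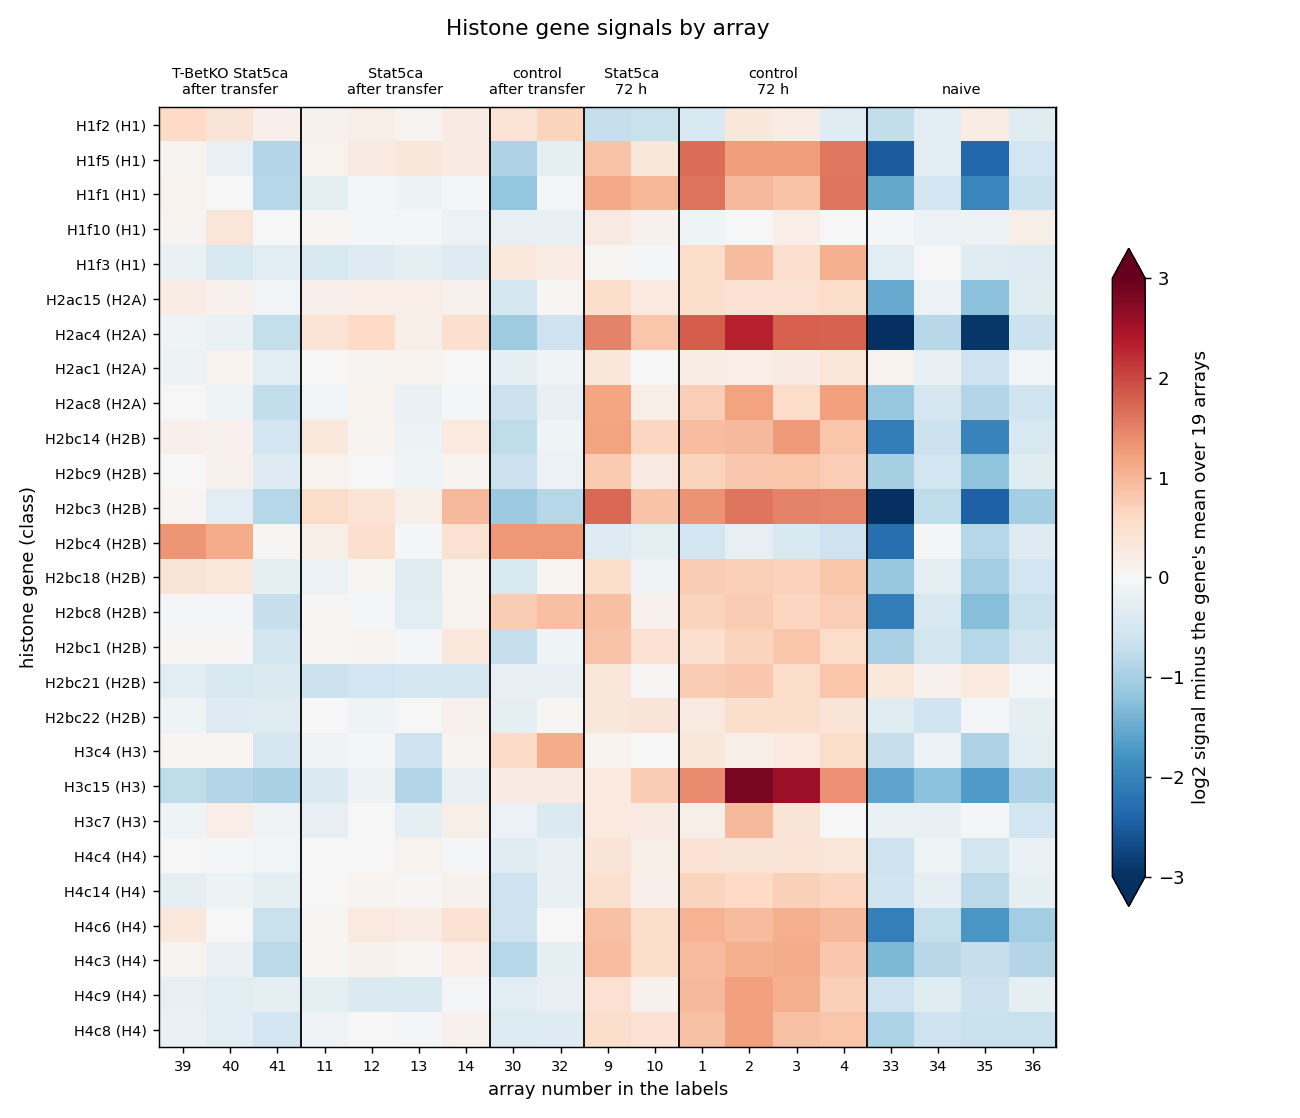
Signal of 27 histone genes (rows, with their class) on 19 arrays (columns, by group), as log2 signal minus the mean of that gene over all arrays, with colours capped at 3 in both directions. Control cells at 72 h are red for most genes and naive arrays 33 and 35 are the bluest, while H1f2, H2bc4, H2bc8 and H3c4 are highest in transferred control cells.

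Control cells at 72 h were compared with naive cells to ask what activation with antigen changed. Of the 27 histone genes 24 were called higher and 0 lower. They include H2ac8 and H3c7, whose means lay under the background in both groups, which leaves 22 that rose. Counted from the background, 15 of them rose at least 2-fold. Over all genes 46.8% were called, 22.0% higher and 24.9% lower, a call being a Benjamini-Hochberg adjusted p under 0.05 in limma. The median change was 1.48 on the log2 scale over the histone genes and −0.09 over all genes. Centring each array on its median moved the latter to 0.04, with 24 histone genes again higher and 38.3% of all genes called. By class, 3 of 5 H1 genes, 4 of 4 H2A, 8 of 9 H2B, 3 of 3 H3 and 6 of 6 H4 genes were called higher, H2ac8 and H3c7 included.

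H2ac4 had signals of 11.23, 11.76, 11.21 and 11.18 in control cells at 72 h, against 4.81, 8.58, 6.49 and 8.76 in naive cells. The groups were more than 2 log2 units apart at their closest, although the naive arrays themselves spread over almost 4 units. H2ac4 rose by 4.18 ± 0.62 (SE, n = 4 each, adjusted p = 7.17e-05), and by 4.05 counted from the background of 7.30, under which its naive mean lay. H2bc3, its H2B neighbour on chromosome 13, had 12.20, 12.47, 12.35 and 12.32 at 72 h, against 7.55, 10.11, 8.41 and 9.85 in naive cells. It rose 10.2-fold, by 3.36 ± 0.42 on the log2 scale (adjusted p = 1.55e-05). As for H2ac4, naive arrays 34 and 36 held the higher naive values.

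H1f5, a linker histone gene, had 12.83, 12.39, 12.38 and 12.73 at 72 h, against 8.64, 10.83, 8.79 and 10.56 in naive cells, and rose by 2.88 ± 0.39 (adjusted p = 3.49e-05). H1f1 rose by 2.44 ± 0.30. H3c15, an H3 gene of the chromosome 3 cluster, had 8.59, 9.99, 9.74 and 8.54 at 72 h, against 5.58, 5.94, 5.46 and 6.23 in naive cells. All its naive values lay under the background, and its change of 3.41 ± 0.30 came to 1.92 counted from it. Among H4 genes H4c6 rose most, by 2.41 ± 0.23, and H4c3 rose by 1.93 ± 0.15. H4c4, which lay close to the top of the measured range at 13.30 to 14.36 in these groups, rose by 0.77 ± 0.10. The testis-type genes rose as well, H2bc1 by 1.37 ± 0.14 and H2ac1 by 0.47 ± 0.12.

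The 3 genes not called were H1f2, H2bc4 and H1f10. H1f2 had 11.01, 11.81, 11.69 and 11.09 at 72 h, against 10.73, 11.15, 11.68 and 11.10 in naive cells, so that the groups overlapped. H1f10 differed by 0.06 ± 0.09 and H2bc4 by 0.41 ± 0.33. H2bc21 rose by 0.56 ± 0.09, less than the median of the 27.

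A further 26 histone probe sets are annotated to several genes, most of them of a single class, while 1 is annotated to an H1 and an H2B gene and both H2A sets also list other histone genes. They are not among the 27 and were fitted with all 35557 probe sets. All 26 rose, with a median of 1.14, where 42.5% of all probe sets were called in either direction and 24.5% lower. Many of the 26 repeat one another: the 10 H3 sets rose by 1.08 to 1.29. Some had identical values, such as 2 H2B sets at 13.38 at 72 h and 11.98 in naive cells. Counts of these probe sets, here and below, are thus not counts of separate measurements. Histone paralogs of a class have very similar coding sequences, so part of the signal of a probe set annotated to one gene can come from another.

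**Figure D2:**
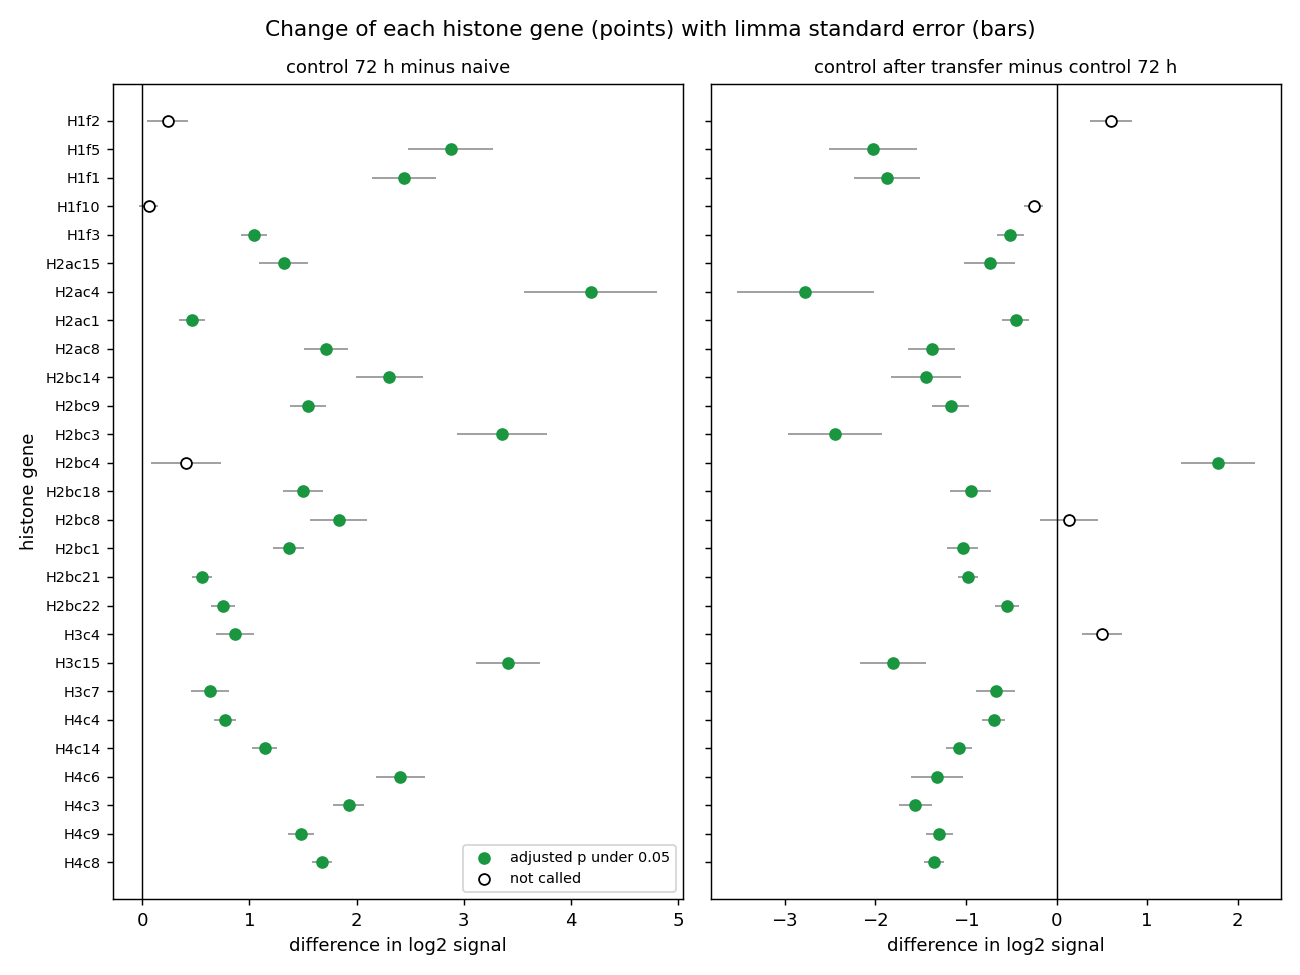
Difference in log2 signal (x axis) of each histone gene (y axis) for control cells at 72 h minus naive cells (left) and control cells after transfer minus control cells at 72 h (right), with bars for the limma standard error. Filled points passed an adjusted p of 0.05: 24 genes lie right of 0 on the left, and on the right 22 lie left of 0 with H2bc4 opposite.

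Genes that act on histone supply moved with them. Slbp had 10.95, 10.60, 10.74 and 11.09 at 72 h, against 8.83, 9.42, 9.40 and 9.29 in naive cells, and rose by 1.61 ± 0.14. Npat rose by 0.83 ± 0.12. In all 10 of 15 genes of histone mRNA 3′-end processing rose, 9 of 10 genes of histone gene transcription (Ccne2, encoding cyclin E2, by 2.86 and E2f1 by 1.49), and 14 of 16 genes of replication-coupled histone chaperones (Asf1b by 2.34), of which Ipo4 fell. All 19 genes of the S phase list rose, Rrm2 most, as did all 15 of the G2 and M phase list. Leaving out any 1 array gave 24 histone calls each time, as did leaving out naive arrays 34 and 36 together.

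Control cells after transfer were compared with control cells at 72 h, which asks what remained after a time in a host. The control 72 h arrays are the same as in the comparison with naive cells. Of the 27 histone genes 22 were called lower and 1 higher, and H2ac8 and H3c7, under the background in both groups, are among the 22 (over all genes 37.5% were called, 24.4% lower and 13.1% higher), and the median difference was −1.04, against −0.04 over all genes. H2ac4 had 8.35 on day 18 and 8.79 on day 120, against 11.23, 11.76, 11.21 and 11.18 at 72 h, and fell by 2.77 ± 0.76 (n = 2 against 4, adjusted p = 0.00857). H2bc3 fell by 2.45 ± 0.52 and H1f5 by 2.03 ± 0.48. All 6 H4 genes were called lower, H4c3 by 1.56 ± 0.18. H4c8, at 6.70 and 6.72 after transfer and at 8.00, 8.33, 7.98 and 7.95 at 72 h, differed by −1.35 ± 0.12, which came to −0.77 counted from the background.

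H2bc4 was the exception. It had 11.42 and 11.40 in transferred control cells, against 9.52, 9.85, 9.66 and 9.48 in control cells at 72 h, and rose 3.43-fold, by 1.78 ± 0.40 on the log2 scale (adjusted p = 0.00245). Its groups did not overlap. H1f2 (0.60 ± 0.23), H3c4 (0.50 ± 0.22) and H2bc8 (0.13 ± 0.32) were also higher in both transferred arrays than in every array at 72 h, without passing the test. The myeloid markers moved with this comparison, 16 of 18 being called higher in transferred control cells. With the myeloid level as a covariate the difference of H2bc4 was 0.20 (adjusted p = 0.722) and that of H2bc8 was −1.14 (adjusted p = 0.00662). In that fit 19 histone genes were lower and 0 higher, where 20.3% of all genes were called.

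Slbp fell by 1.43 ± 0.18 and Npat by 0.92 ± 0.15 in transferred control cells. Of the S phase list 19 of 19 fell, of the replication-coupled chaperones 15 of 16 fell while Ipo4 rose, and of the 3′-end processing genes 12 of 15 fell. Of the 26 shared histone probe sets 9 were called lower and 0 higher (19.1% and 13.1% of all probe sets).

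Against naive cells, transferred control cells had 7 histone genes higher and 1 lower (7.94% and 9.81% of all genes, 17.7% in all), and 19 were not called. This comparison shares the transferred control arrays with the previous one. H2bc8 had 10.18 and 10.32 in transferred control cells, against 7.33, 8.92, 8.14 and 8.74 in naive cells, and rose by 1.96 ± 0.32 (adjusted p = 0.0015). H2bc4, at 11.42 and 11.40 after transfer against 7.85, 10.07, 9.25 and 9.72 in naive cells, rose by 2.19 ± 0.40. H3c4, with 8.89 and 9.45 after transfer and 7.64, 8.15, 7.39 and 8.02 in naive cells, rose by 1.37 ± 0.22. H4c6 (1.09 ± 0.28), H1f2 (0.84 ± 0.23) and H1f3 (0.53 ± 0.15, or 0.19 counted from the background) were also called higher. H3c15 was called higher by 1.61 ± 0.36, which came to 0.12 counted from the background. H2bc21 fell by 0.42 ± 0.11.

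None of the 19 S phase genes and none of the 15 G2 and M phase genes was called in either direction in limma. Slbp differed by 0.18 ± 0.18 and Npat by −0.08 ± 0.15. Of the shared histone probe sets 0 were called in limma (5.45% of all probe sets were called higher and 6.76% lower), with a median of 0.44. The myeloid markers moved with the histone genes here, 6 of 18 being called higher. With their level as a covariate 3 histone genes remained called, namely H2bc4, H2bc8 and H3c4, where 3.91% of all genes were called. The count of calls depended on the arrays: it was 18 without naive arrays 34 and 36, 13 without naive array 34, 4 without array 30 and 3 without array 32.

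**Figure D3:**
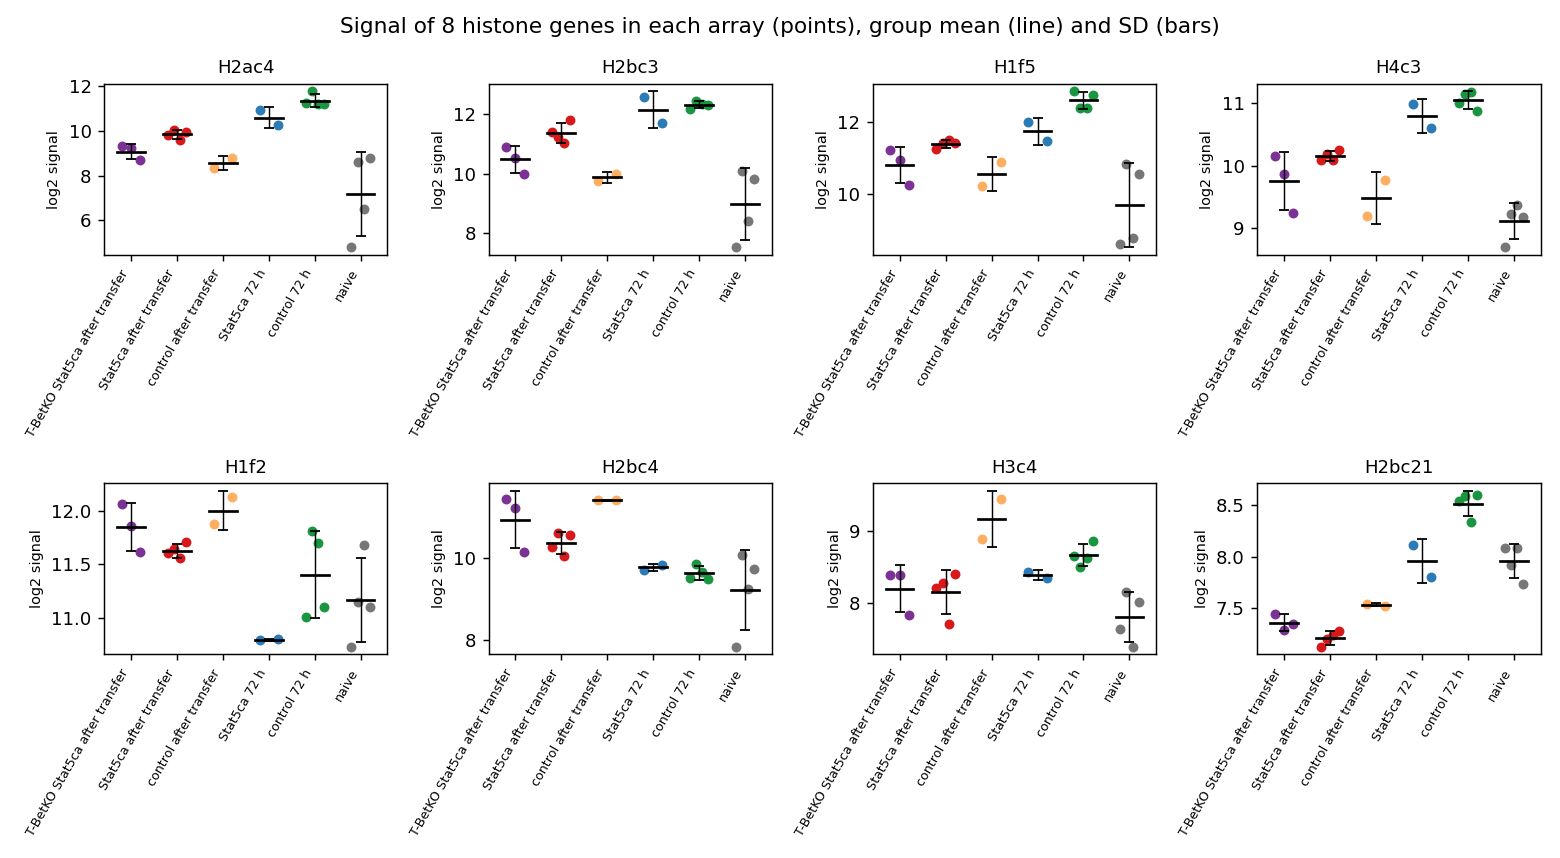
Log2 signal (y axis) of 8 histone genes on every array (points) by group (x axis), with the group mean as a line and the SD as bars (n = 3, 4, 2, 2, 4 and 4 from left to right). H2ac4, H2bc3, H1f5 and H4c3 are highest in control cells at 72 h, and H1f2, H2bc4 and H3c4 in transferred control cells.

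At 72 h, Stat5ca cells were compared with control cells. Of the 27 histone genes 0 rose and 5 fell, against 2.37% and 3.35% of all genes called higher and lower, 5.72% in all. Differences were below 0 for 24 of the 27, with a median of −0.26 against 0.04 over all genes. H3c15 had 7.47 and 7.93 in Stat5ca cells, against 8.59, 9.99, 9.74 and 8.54 in control cells, and fell by 1.51 ± 0.36 (n = 2 against 4, adjusted p = 0.0246). Control arrays 2 and 3 held its high values: the difference was −0.87 without them (adjusted p = 0.0441) and −2.16 without arrays 1 and 4 (adjusted p = 0.00161). H1f3 had 7.27 and 7.19, against 7.78, 8.17, 7.74 and 8.30, and fell by 0.76 ± 0.15. H4c9 (−0.70 ± 0.15), H2bc21 (−0.56 ± 0.11) and H4c8 (−0.48 ± 0.12) were also called lower. For these 5 genes both Stat5ca arrays lay under every control array, which is no separate support, as the genes were picked by their call.

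Other genes with large rises on activation were not called here. H2ac4 differed by −0.77 ± 0.76 and H1f5 by −0.85 ± 0.48, with both Stat5ca arrays under all control arrays, and H2bc3 by −0.18 ± 0.52 with overlapping arrays. Array 10 was lower than array 9 for 23 of the 27 genes. The count of calls was 2 without array 9 and 0 without array 10. Of the myeloid markers 3 of 18 were called lower in Stat5ca cells. With the myeloid level as a covariate 3 histone genes and 6.32% of all genes were called. A fit with the RNA integrity number as a covariate called 3 histone genes and 4.58% of all genes. Of the S phase list 12 of 19 genes fell, Pola1 most, by 1.35, and of the replication-coupled chaperones 8 of 16, while 0 of 15 G2 and M phase genes were called in limma. Of the shared histone probe sets 1 was called lower and 0 higher (1.95% and 1.31% of all probe sets). The labels mark these 2 arrays as GFP-positive cells, so selection by GFP and Stat5ca cannot be told apart.

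After transfer, Stat5ca cells on day 20 were compared with control cells of days 18 and 120. Here 5 histone genes were called higher and 2 lower (16.9% and 8.46% of all genes, 25.4% in all), with a median of 0.31 against 0.08. These calls made up 18.5% and 7.41% of the histone genes, shares near those of all genes. The counts alone thus do not set histone genes apart in this comparison. H2bc3 had 11.40, 11.26, 11.03 and 11.82 in Stat5ca cells, against 9.76 and 10.01 in control cells, and rose 2.81-fold, by 1.49 ± 0.52 (n = 4 against 2, adjusted p = 0.0464). H4c3 had 10.09, 10.19, 10.09 and 10.25, against 9.20 and 9.78, and rose by 0.67 ± 0.18 (adjusted p = 0.0132). H2bc1 (0.50 ± 0.17), H4c14 (0.48 ± 0.14) and H4c8 (0.40 ± 0.12) were also called higher, the last with both means under the background. H2ac4 was higher on all 4 Stat5ca arrays, at 9.83, 10.02, 9.58 and 9.93, than on the control arrays, at 8.35 and 8.79, but its difference of 1.27 ± 0.76 was not called (adjusted p = 0.257).

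H3c4 went the other way. It had 8.22, 8.28, 7.71 and 8.41 in Stat5ca cells, against 8.89 and 9.45 in control cells, and fell by 1.01 ± 0.22 (adjusted p = 0.00355). H1f3 fell by 0.63 ± 0.15, or by 0.19 counted from the background. H2bc4 (−1.04 ± 0.40) and H2bc8 (−0.90 ± 0.32) were lower on every Stat5ca array without passing the test. Of the myeloid markers 5 of 18 were called lower and 0 higher in Stat5ca cells. With their level as a covariate 13 histone genes were called higher and 3 lower, among the latter H3c4 (−0.65), and H2ac4 was 3.02 higher (adjusted p = 6.23e-05), while H2bc4 and H2bc8 differed by −0.18 and −0.21. The SD of the myeloid mean was 1.89 in naive cells and at most 0.41 in the other TCRP1A groups. This adjustment thus rested mostly on naive arrays, where H2ac4 (SD 1.88) and the G2 and M phase mean (SD 1.105) varied too. The part of that variation in the adjusted values was not tested. The same limit holds for the other fits of TCRP1A cells with the myeloid level.

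Genes that act in histone supply and DNA replication were higher in transferred Stat5ca cells. Slbp had 10.41, 10.68, 10.65 and 10.62 in Stat5ca cells, against 9.22 and 9.62 in control cells, and rose by 1.17 ± 0.18 (adjusted p = 0.00036). Npat rose by 0.51 ± 0.15. In all 16 of 19 S phase genes rose, 11 of 16 replication-coupled chaperones (Asf1b by 1.30 and Chaf1b by 1.06), 11 of 15 genes of 3′-end processing and 5 of 10 of histone gene transcription. None of the 26 shared histone probe sets was called in limma (11.9% of all probe sets were called higher and 7.60% lower), with a median of 0.27. The count of histone calls was 1 without array 30, 4 without array 32 and 3 without Stat5ca array 14.

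The difference between the Stat5ca effect after transfer and that at 72 h was tested directly. It was above 0 for 4 histone genes and below 0 for 0 in limma (12.3% and 5.48% of all genes, 17.8% in all), and the median over the 27 was 0.64 against 0.01 over all genes. The 4 were H4c3, H4c8, H4c9 and H4c14, a share near that of all genes. With array weights 11 genes of several classes were called above 0 and 1 below, where 30.6% of all genes were called. With the myeloid level the counts were 12 and 1, where 22.2% of all genes were called. H4c3 had effects of 0.67 after transfer and −0.26 at 72 h, a difference of 0.92 ± 0.25 (adjusted p = 0.0211). H4c8 had 0.40 and −0.48 (difference 0.88 ± 0.16, or 0.48 counted from the background, under which both its transfer means lay), H4c14 had 0.48 and −0.34 (0.81 ± 0.20), and H4c9 had −0.01 and −0.70 (0.69 ± 0.21). H2ac4 showed a difference of 2.03 ± 1.07 that was not called, and H2bc4 one of −1.18 ± 0.57. Of the shared histone probe sets 2 were called above 0 and 0 below (8.28% and 3.97% of all probe sets). Slbp differed by 1.68 ± 0.25 and Npat by 0.80 ± 0.21, and 17 of 19 S phase genes were called higher. Without array 10 or without array 30, 1 histone gene was called, and without control arrays 2 and 3 there were 2.

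**Figure D4:**
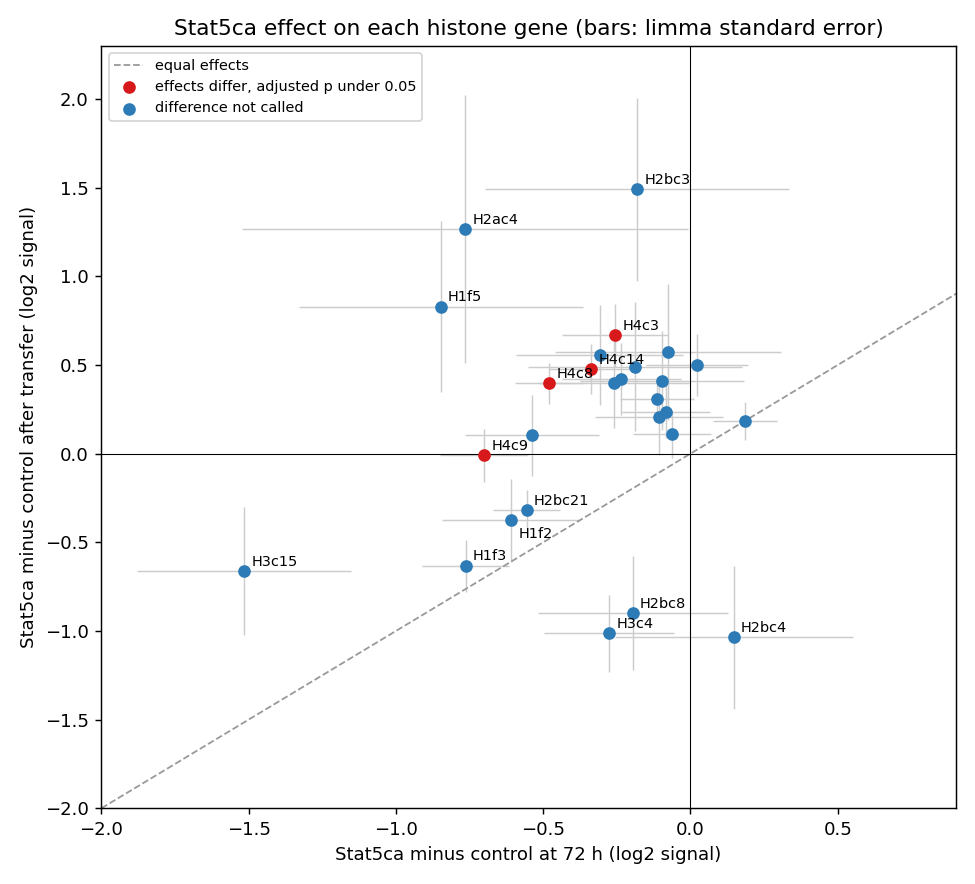
Stat5ca minus control in log2 signal after transfer (y axis) against the same at 72 h (x axis) for 27 histone genes, with limma standard errors as bars and a dashed line where both are equal. The 4 red points, H4c3, H4c8, H4c9 and H4c14, passed the test of the difference and lie above the line, and H2bc4, H2bc8 and H3c4 lie furthest below it.

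Stat5ca cells after transfer were also set against the groups they came from. Against Stat5ca cells at 72 h, 6 histone genes fell and 1 rose (12.7% and 8.61% of all genes, 21.3% in all), with a median of −0.45. H1f1 had 10.41, 10.66, 10.54 and 10.65 after transfer, against 11.83 and 11.68 at 72 h, and fell by 1.19 ± 0.36. H2bc21 fell by 0.74 ± 0.11, and H4c3, H4c8, H4c9 and H2bc1 fell by less. H1f2 had 11.61, 11.64, 11.55 and 11.71 after transfer, against 10.79 and 10.80 at 72 h, and rose by 0.83 ± 0.23. The myeloid mean was 10.51 in transferred Stat5ca cells, against 7.28 at 72 h. With it as a covariate H1f2 differed by 0.90 (adjusted p = 0.0996), and 19 histone genes were lower and 0 higher, where 14.3% of all genes were called. Of the shared histone probe sets 1 was called lower and 0 higher (9.10% and 7.05% of all probe sets). The count of calls was 1 without array 9.

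Against naive cells, 19 histone genes were higher in transferred Stat5ca cells and 1 was lower (15.8% and 12.7% of all genes, 28.6% in all), with a median of 0.73 against −0.05. H2ac4 had 9.83, 10.02, 9.58 and 9.93, against 4.81, 8.58, 6.49 and 8.76, and rose by 2.68 ± 0.62 (2.54 from the background). H2bc3 rose by 2.40 ± 0.42, and 8 of 9 H2B and 5 of 6 H4 genes were called higher. Among the 19 called higher, H2ac8, H2bc22, H3c15 and H4c8 had both means under the background, which leaves 15. H2bc21 had 7.13, 7.20, 7.24 and 7.28, against 8.08, 7.92, 8.08 and 7.74, and fell by 0.74 ± 0.09. Of the shared histone probe sets 23 of 26 rose and 0 fell (13.1% and 14.4% of all probe sets). The myeloid markers had 0 of 18 calls here in limma, as had the 2 erythroid markers, while 2 of 5 NK cell markers were called higher (Klrb1c by 3.50 and Eomes by 3.14). Eomes averaged 10.55 in control cells at 72 h, where the other NK cell markers, Ncr1, Klrb1c, Klra8 and Cd244a, lay under the background. The erythroid mean was 8.76 to 11.39 in transferred Stat5ca cells and 8.23 to 10.10 in naive cells. The part of the NK cell and erythroid markers was not tested. With the myeloid level as a covariate 19 histone genes were higher and 1 lower, where 32.6% of all genes were called.

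**Figure D5:**
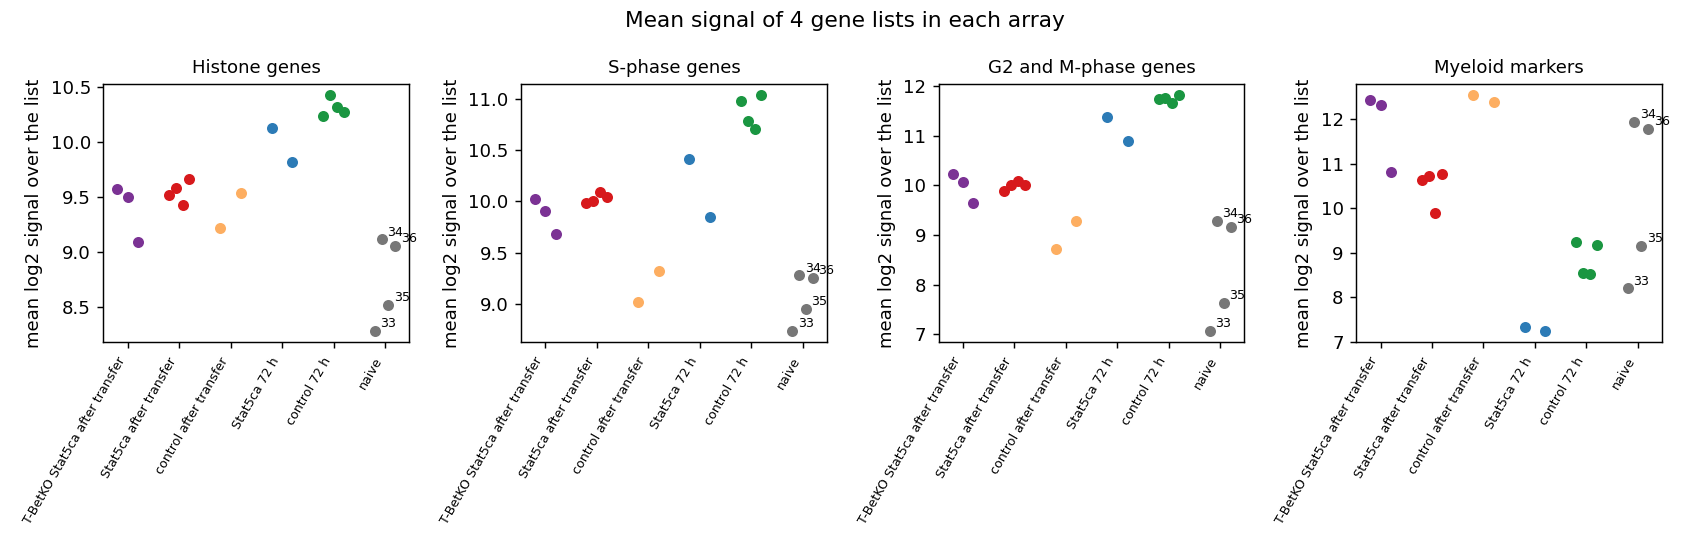
Mean log2 signal (y axis) of the 27 histone genes, 19 S phase genes, 15 G2 and M phase genes and 18 myeloid markers on every array (points) by group (x axis), with naive arrays numbered. Histone means run from 9.43 to 9.66 in transferred Stat5ca cells and reach 9.22 and 9.53 in transferred control cells, where the myeloid means are 12.54 and 12.39.

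T-BetKO cells with Stat5ca were compared with TCRP1A cells with Stat5ca, both after transfer. Of the 27 histone genes 0 were called higher and 1 lower (7.03% and 13.8% of all genes, 20.8% in all), with a median of −0.17 against −0.02. The gene was H4c8, with 6.92, 6.77 and 6.53 in T-BetKO cells, against 7.01, 7.12, 7.07 and 7.23 in TCRP1A cells, a difference of −0.37 ± 0.11 (n = 3 against 4, adjusted p = 0.0249) with both means under the background. H2bc3 had 10.91, 10.55 and 10.01, against 11.40, 11.26, 11.03 and 11.82, a difference of −0.89 ± 0.45 that was not called. H2ac4 differed by −0.77 ± 0.64 and H4c14 by −0.30 ± 0.12, each with all T-BetKO arrays under all TCRP1A arrays. The call of H4c8 was lost without array 12, 14, 40 or 41. The RNA integrity numbers were 7, 6 and 8 on the T-BetKO arrays, against 8 and 9 on the TCRP1A arrays, and with this number as a covariate 0 histone genes and 6.92% of all genes were called in limma.

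Array 41, from day 54, was lower than array 39 for 26 of the 27 genes and lower than array 40 for 23 of 27, with medians of −0.45 and −0.51. Slbp fell by 0.54 ± 0.16 and Npat by 0.43 ± 0.14 in T-BetKO cells. Of the S phase list 3 of 19 genes fell, a share near the 13.8% of all genes called lower. Of the shared histone probe sets 1 was called lower and 0 higher (10.9% and 6.33% of all probe sets). Strain, stimulus, day and labelling protocol cannot be told apart from the genotype in this comparison. The myeloid means were 12.43 and 12.33 on arrays 39 and 40 and 10.81 on array 41, against 9.90 to 10.77 in TCRP1A cells. With the myeloid level as a covariate 9 histone genes were lower and 0 higher, where 14.8% of all genes were called. The SD of the myeloid mean was 1.89 in naive cells and 0.90 in T-BetKO cells. This adjustment over 19 arrays thus also rested mostly on naive arrays, and their part in the adjusted values was not tested.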

How the data were processed

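The authors deposited 1 log2 signal for each probe set and array, made with Affymetrix Expression Console per the submitters' processing notes. Version, summarization and normalization: not given in the sources used here. No further normalization was applied, and the log2 scale was read from the range of 3.13 to 14.94. Array medians lay between 7.69 and 7.89. RNA was labelled with the Ambion WT Expression kit per the labels. This kit primes along whole transcripts, so mRNAs without a poly(A) tail are labelled too. Precision is limited by the small number of arrays in a group.

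Probe sets were named from GEO's platform annotation: 21789 of 35557 carried 1 gene, 1621 several and 12147 none. Each gene was represented by its brightest single-gene probe set by mean over the 19 arrays. All 27 histone genes had 1 such probe set and all were tested, without a filter on low signal. Of 66 RefSeq symbols that match the rule, 36 lie only on probe sets of several genes and 3 on none.

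Models were fitted to all 19938 genes with lmFit and eBayes of limma 3.58.1 (R 4.3.3), without covariates, with the 16 TCRP1A arrays in 1 fit and all 19 arrays for the T-BetKO comparison. Errors of differences are standard errors from limma. Changes were also counted from the receptor-gene background (1194 genes). The fit over all probe sets, for the 26 histone probe sets of several genes, was added after the data were seen, as were fits without control 72 h arrays 1 and 4 or 2 and 3.

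The histone genes and the other gene lists were chosen with earlier results of these data known, so no list-wide p is given. Named genes are the 3 brightest of each class, the 2 largest rises and falls among called histone genes of a comparison, calls of opposite sign, testis types, up to 3 called genes of the other lists, and Slbp, Npat, H2az1 and H3f3a. Others, such as H2bc8 and H4c9, were chosen after their values were seen. Alternatives were another prior variance, other arrays in the fit, quantile normalization, median centring, the mean over probe sets of a gene, array weights, removal of dim genes, RNA integrity number or myeloid level as a covariate, and leaving out arrays. The fit was tested on simulated data. Tables and figures were made with Python 3.11.15, pandas 2.3.3, numpy 2.4.6 and matplotlib 3.10.9.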

Additional observations from a re-analysis of the deposited data

Results flagged for a closer look

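Within groups of 4 arrays, 3 histone values stood far from the rest: the gap of the extreme array to its nearest neighbour, divided by the range of the group, was above Dixon's 95% critical value. H2ac4 in control cells at 72 h had a ratio of 0.9061, array 2 being highest. H4c8 in control cells at 72 h had 0.8767, array 2 again being highest, and H4c8 in naive cells had 0.8677, array 33 being lowest. Of 81 sets of 4 arrays looked at, chance alone would mark about 1 in 20.

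The Stat5ca effect after transfer differed from that at 72 h, by an interaction term in limma, for H4c3 (0.9219), H4c8 (0.8752, with both transfer means under the background), H4c14 (0.8141) and H4c9 (0.6922).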

How the results depend on the processing

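The numbers of histone genes called under other settings were as follows, with the reported number first. The share of all genes called moved with the setting too. For Stat5ca against control at 72 h it was 5.72% as reported, 23.1% with array weights and 4.58% with the RNA integrity number. For Stat5ca against control after transfer it was 25.4% as reported, 36.9% with array weights, 33.8% with only both groups and 16.6% with the myeloid level. Control at 72 h against naive (24) gave 24 when any 1 array was left out, and every other setting stayed within 1.5 times. Control after transfer against control at 72 h (23) ranged from 17 to 23 over single arrays left out. Control after transfer against naive (8) gave 18 without naive arrays 34 and 36, 1 when the fit held only both groups, 3 after adding the myeloid level, and 3 to 13 over single arrays. Stat5ca against control at 72 h (5) gave 8 with array weights, 3 with the RNA integrity number, 3 with the myeloid level, and 0 to 5 over single arrays. Stat5ca against control after transfer (7) gave 19 with only both groups, 4 after quantile normalization, 15 with array weights, 16 with the myeloid level, and 1 to 6 over single arrays. Stat5ca after transfer against 72 h (7) gave 19 with only both groups, 17 with array weights, 19 with the myeloid level, and 1 to 7 over single arrays. Stat5ca after transfer against naive (20) gave 21 with array weights, 21 with median centring, and 17 to 20 over single arrays. The difference of the Stat5ca effects (4) gave 12 with array weights, 13 with the myeloid level, 2 without control 72 h arrays 2 and 3 (a setting chosen after seeing the data), and 1 to 5 over single arrays. The T-BetKO comparison (1) gave 4 with only both groups, 4 with array weights, 0 with the RNA integrity number, 9 with the myeloid level, and 0 to 1 over single arrays. Where 1 array was left in a group, it was assumed to vary like the others. Over single genes, 4104 values kept direction and side of the threshold, 148 gained a call, 157 lost it and 1 reversed, a sign change being counted only where either value was called: H2bc8 in transferred control cells against control cells at 72 h, 0.13 as reported and −1.14 with the myeloid level. The cause of these shifts was not tested. No paired analysis was possible because the array numbers are not shared between groups. Groups of 2 arrays, paralogs with similar sequence, and signals under 7.30 limit what can be read.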

Other observations

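Genes of histone variants moved apart from each other. H2ax, an H2A variant that is phosphorylated at DNA breaks, was 2.02 higher on the log2 scale in control cells at 72 h than in naive cells, and 0.85 higher in transferred Stat5ca cells than in transferred control cells. Cenpa, the H3 variant of centromeres, was 2.60 higher at 72 h than in naive cells and 2.51 lower in transferred control cells than at 72 h. H3f3a, which encodes H3.3, was called in no comparison, with log2 signals between 7.21 and 7.62 on all arrays, close to the background of 7.30. H2az1 was called higher in transferred control cells than in naive cells, by 0.59, where H2az2 was called lower, by 0.35. Of the chaperones of variants, 4 of 10 were called lower in transferred control cells than in naive cells and 0 higher. Over all genes 9.81% were called lower and 7.94% higher there. The largest differences among these chaperones were those of Daxx (−0.62) and Srcap (−0.43).

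Between the transferred control arrays, day 120 was higher than day 18 for 21 of the 27 histone genes, with a median of 0.29 against −0.02 over all genes. Each day is a single array, and the difference was not tested. The erythroid markers moved with it, Alas2 being at 13.62 on day 120 and 8.93 on day 18, and Slc4a1 at 13.33 and 9.67. The S phase mean was higher too, at 9.32 on day 120 and 9.02 on day 18, as was the G2 and M phase mean (9.29 and 8.73). The myeloid mean was lower, at 12.39 and 12.54. The part of these lists was not tested.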
